A study of Mus musculus with 6 samples.

Results

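*Lin28a*, *Lin28b*, *Hmga2*, *Igf2bp1*, *Igf2bp2* and *Igf2bp3* are 6 genes of the fetal stem cell program. They were found by symbol in the count tables of sorted cells from the embryonic aorta, as 6 of 24062 genes, and all 6 were among the 12688 genes that passed the filter on low counts. RNA was sequenced from CD31+ckit+ cells of the aorta-gonad-mesonephros region (AGM), the tissue around the dorsal aorta in which the first hematopoietic stem cells arise. The embryos were at embryonic day 10.5, of the strain labelled C57BL/6JOlaHsd, and all carried the Gata2Venus reporter on 1 allele (G2V/+), in which a Venus fluorescent protein is translated from the *Gata2* transcript. The cells were sorted by Venus into a fraction of intermediate (Vmed, labelled G2Vi) and a fraction of high fluorescence (Vhigh, labelled G2Vh), with 3 libraries per fraction that carry the replicate numbers 1 to 3 in both. Both fractions thus carried the same reporter allele, and no library came from Venus-negative cells. CD31 marks endothelial cells and the blood cells that emerge from them, and ckit marks the emerging blood cells. The labels do not say how many embryos were pooled per library or whether libraries come from separate litters, so p-values measure the spread between these libraries.

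Lin28a and Lin28b are RNA-binding proteins that block the maturation of let-7 microRNAs, which in turn pair with sites in the 3′ untranslated regions (3′ UTRs) of growth-promoting mRNAs and lower their output. *Hmga2*, which encodes an architectural chromatin protein that supports self-renewal of fetal stem cells, is a well known let-7 target, and *Lin28a* and *Lin28b* are let-7 targets as well. The Igf2bp proteins bind mRNAs, many of them carrying N6-methyladenosine (m6A), and stabilize or localize them. In blood, *Lin28b*, *Igf2bp3* and *Hmga2* are known for high expression in fetal and low expression in adult stem cells.

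The let-7 family is shown first, as the letters that link it to the 6 genes are short. In the RefSeq sequences of GRCm38.p6, 10 of 11 mature mouse let-7 and miR-98 RNAs share bases 2 to 8, the seed, which is in capitals here. let-7a is drawn from chr13:48538239-48538260 on the minus strand, let-7b from chr15:85707325-85707346 on the plus strand and let-7g from chr9:106178846-106178867 on the plus strand.
let-7a-5p: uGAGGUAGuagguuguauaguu
let-7b-5p: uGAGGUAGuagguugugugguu
let-7g-5p: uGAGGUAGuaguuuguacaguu
Lin28 proteins hold the let-7 precursors through the 4 bases GGAG in the part between the arms. These letters stood between the arms of 8 of 11 hairpins with the let-7 seed and 2 listed arms, with *Mirlet7b*, *Mirlet7c-2* and *Mir98* as the exceptions, and of 8.07% of all 644 mouse hairpins with 2 listed arms. Such a match is a description of the sequence, and binding was not measured.

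The letters opposite the seed, CTACCTC, were searched on the transcript strand in the longest 3′ UTR of each gene in GENCODE M21 (GRCm38). All 6 genes held at least 1 match, where 10.8% of the 11757 tested genes with a 3′ UTR did. *Hmga2*, *Lin28b* and *Igf2bp1* held 4 each, *Lin28a* held 2, and *Igf2bp2* and *Igf2bp3* held 1 each, 16 in all. At least 3 matches were present in 0.204% of tested genes. Longer 3′ UTRs hold more matches by length alone. Among tested genes with a 3′ UTR between 0.8 and 1.2 times as long, 0.132% had as many matches as *Hmga2* (3014 bases), 0.218% as many as *Lin28b* (4445 bases), 0.253% as many as *Igf2bp1* (6337 bases) and 2.20% as many as *Lin28a* (2775 bases). For *Igf2bp2* (1784 bases) and *Igf2bp3* (2119 bases) the shares were 12.7% and 13.6%, so that a single match is common at their length. The match nearest the stop codon of each gene is shown with the 14 bases before it and the base after it, the match in capitals. All 6 genes lie on the minus strand.
*Lin28a*, chr4:134005189-134005210: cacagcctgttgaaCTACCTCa
*Lin28b*, chr10:45381022-45381043: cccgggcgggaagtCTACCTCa
*Hmga2*, chr10:120364224-120364245: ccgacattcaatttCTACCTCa
*Igf2bp1*, chr11:95961778-95961799: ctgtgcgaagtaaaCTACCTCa
*Igf2bp2*, chr16:22059473-22059494: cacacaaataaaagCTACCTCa
*Igf2bp3*, chr6:49086787-49086808: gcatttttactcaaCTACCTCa
In all 6 the match is followed by an A, the base favoured opposite the first base of a microRNA. Over all 16 matches this held for 9 (both of *Lin28a*, 3 of *Igf2bp1* and 1 of each other gene).

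**Figure D1:**
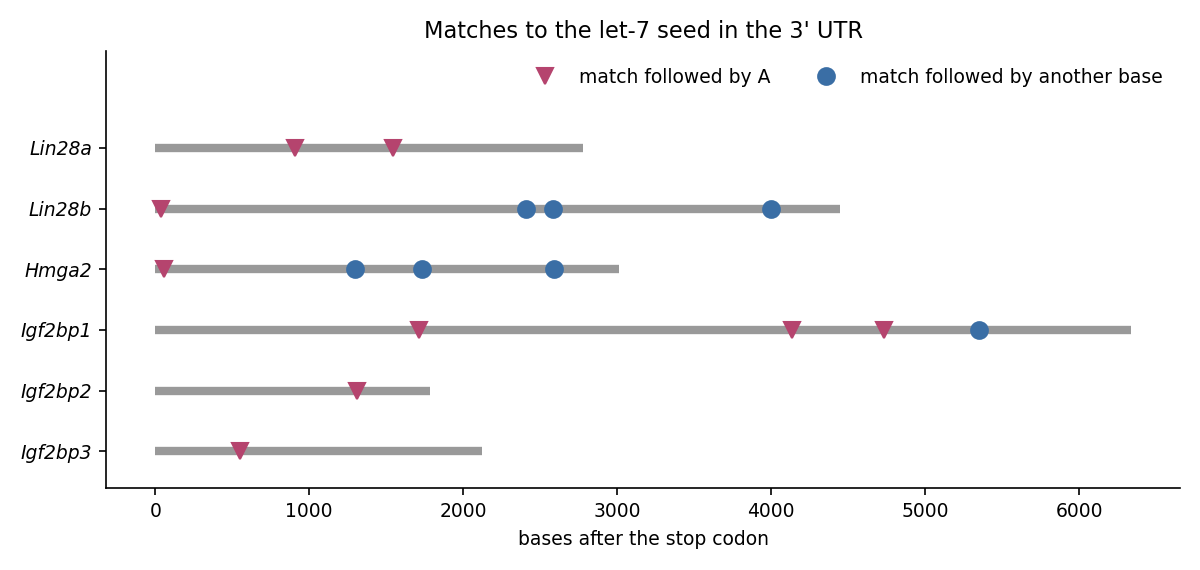
Position of each match to the let-7 seed along the 3′ UTR of the 6 genes, in bases after the stop codon. The grey bar is the 3′ UTR, triangles are matches followed by an A and circles are other matches. The first match of *Lin28b* and of *Hmga2* lies within 36 and 58 bases of the stop codon, and the matches of *Igf2bp1* spread from base 1715 to base 5353.

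The libraries held 8296831 to 12035206 counts on genes, so that 3 counts, taken as the smallest number that can be shown, correspond to 0.243 to 0.360 CPM (counts on a gene relative to the TMM-scaled total of its library). This limit covers counting error only. All 6 genes were above it in each library. The share of gene counts on Rn45s, a ribosomal RNA locus, was 10.5% and 7.47% in the libraries numbered 3 and 0.887% to 1.53% in the other 4. The share of counts outside genes was 13.6% to 15.5% in the libraries numbered 3 and 39.3% to 60.9% in the others. The sorting markers *Kit* (60.9 to 532 CPM) and *Pecam1*, which encodes CD31 (124 to 554 CPM), were present in each library. *Gata2* itself had 28.6 to 70.5 CPM in Vmed and 42.8 to 145.3 CPM in Vhigh, with overlap. None of the 6 genes differed between the fractions after adjustment over all genes (edgeR quasi-likelihood test, adjusted p = 0.9998 for each), and 0 of 12688 genes did (0%). Before adjustment, p was under 0.05 for 259 genes (2.04%), and none of the 6 was among them.

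*Lin28b*, on chromosome 10 (45376620 to 45486395), came closest to a difference between the fractions. It had 38.3, 31.9 and 66.9 CPM in Vmed replicates 1, 2 and 3, and 130.7, 140.3 and 76.9 CPM in the Vhigh replicates. Every Vhigh library was above every Vmed library, with the narrowest gap between the libraries numbered 3. The means were 45.7 ± 18.7 CPM (SD, n = 3) in Vmed and 116.0 ± 34.2 CPM (SD, n = 3) in Vhigh. The fitted difference of Vhigh minus Vmed was 1.34 on the log2 scale (standard error, SE, 0.63), a 2.54-fold higher level, with an edgeR unadjusted p = 0.064. The exact two-sided permutation test gave p = 0.1, the smallest that 3 libraries against 3 allow. Of all tested genes, 3.64% had all Vhigh libraries above all Vmed libraries and 5.3% the reverse. Among the 6 genes 1 did so and 0 the reverse, and 6 genes are too few to set such a count against this background. The log2 difference in the same-numbered pairs was 1.76, 2.13 and 0.20. In a bulk library, more cells that express a gene and more RNA per cell cannot be told apart.

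Sums over some marker lists did not overlap between the fractions, as with *Lin28b*. The 14 blood stem and progenitor markers, all tested and none at 0 in all libraries, summed to 234 to 554 CPM in Vmed and 932 to 1951 CPM in Vhigh. Of these 14 markers, 7 had all Vhigh libraries higher, against 3.64% of all tested genes. The 12 mesenchyme markers summed to 1996 to 5430 CPM in Vmed and 293 to 703 CPM in Vhigh, and the 12 macrophage markers to 1033 to 1928 against 127 to 594 CPM. All Vmed libraries were higher for 8 of the mesenchyme and 7 of the macrophage markers, against 5.3% of all tested genes. The 12 epithelial and mesonephric markers summed to 238 to 351 against 103 to 133 CPM, with 4 of them higher in all Vmed libraries. For the 12 neural markers, with *Sox1* and *Neurog2* at 0, the ranges overlapped (132 to 335 and 77.0 to 136 CPM). None of the neural markers was higher in all Vmed libraries. The sums of the 12 endothelial markers overlapped too (1254 to 5304 and 1068 to 3798 CPM), with 1 marker higher in all Vmed libraries. For the 11 primitive erythroid markers found the ranges overlapped (297 to 668 and 192 to 394 CPM), with *Hba-a1* and *Hba-a2* at 0 in all libraries. The part of these cell types in the level of *Lin28b* was not tested.

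*Lin28a*, the paralog on chromosome 4 (134003330 to 134018841), did not separate the fractions. It had 51.8, 15.7 and 4.46 CPM in Vmed replicates 1, 2 and 3, and 59.1, 26.5 and 2.97 CPM in Vhigh. The libraries numbered 1 were highest and those numbered 3 lowest in both fractions, a 19.9-fold range over the 6 libraries. The lowest value rests on 35 counts and the next on 42. The fitted difference of Vhigh minus Vmed was 0.30 on the log2 scale (SE 1.35, edgeR unadjusted p = 0.83), less than the spread between replicates.

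Germ cells also express *Lin28a*. Without *Kit*, which hematopoietic cells share, the primordial germ cell list summed to 4.82 to 50.9 CPM over the libraries. In Vhigh replicate 1, where *Lin28a* was highest, 10 of the 12 markers had no count, and in Vmed replicate 1, the next highest, 9 had none. *Pou5f1* had 0 counts in both, and its highest level was 28.9 CPM, in Vhigh replicate 2. *Dppa3*, from the same list, was highest in Vmed replicate 1 (54 counts, 6.49 CPM) and had 0 counts in Vhigh replicate 1. *Dnd1*, which encodes a germ cell RNA-binding protein, had 47 counts (4.82 CPM) in Vhigh replicate 1. It was higher in all Vhigh libraries, as were 3.64% of all tested genes. Its counts in Vmed replicates 1, 2 and 3 were 2, 5 and 0. Vhigh replicate 1 had the fewest genes with a count (10427), and other lists had gaps there too. Of the 12 neural and the 12 epithelial and mesonephric markers, 8 and 9 had no count in it. In Vmed replicate 1 these numbers were 4 and 2. The part of germ cells in the level of *Lin28a* was not tested.

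*Hmga2* (chromosome 10, 120361275 to 120476469) had the highest mean level of the 6 genes per length. Its values were 682, 197 and 126 CPM in Vmed replicates 1, 2 and 3 and 761, 477 and 94.5 CPM in Vhigh. The numbers 1, 2 and 3 stood in the same descending order as for *Lin28a* in both fractions. The fitted difference of Vhigh minus Vmed was 0.41 on the log2 scale (SE 0.79, edgeR unadjusted p = 0.62), with overlapping fractions.

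*Igf2bp1* (chromosome 11, 95957163 to 96005940) ran the other way over the numbers. It had 135, 327 and 637 CPM in Vmed replicates 1, 2 and 3 and 153, 426 and 656 CPM in Vhigh. Same-numbered libraries lay close together, while the 6 libraries spanned a 4.85-fold range. The fitted difference of Vhigh minus Vmed was 0.17 on the log2 scale (SE 0.66, edgeR unadjusted p = 0.80), although Vhigh was the higher in 3 of 3 pairs. With the replicate number as a block the value was 0.20 (SE 0.21, edgeR quasi-likelihood unadjusted p = 0.37, adjusted p = 0.99).

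*Igf2bp2* (chromosome 16, 22059009 to 22163299) was lowest in the libraries numbered 1, too. It had 30.6, 175 and 151 CPM in Vmed replicates 1, 2 and 3 and 25.1, 110 and 234 CPM in Vhigh. The fitted difference of Vhigh minus Vmed was 0.05 on the log2 scale (SE 0.85, edgeR unadjusted p = 0.96), with Vhigh higher in 1 of 3 pairs. With the replicate number as a block the value was -0.11 (SE 0.40), so that no direction can be given.

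*Igf2bp3* (chromosome 6, 49085223 to 49214957) had the narrowest range of the 6 genes in Vmed, with 227, 215 and 184 CPM in replicates 1, 2 and 3. In Vhigh it had 70.9, 178 and 212 CPM, and the library numbered 1 stood below the other 5. The fitted difference of Vhigh minus Vmed was -0.44 on the log2 scale (SE 0.53, edgeR unadjusted p = 0.42), and it was -0.03 without both libraries numbered 1. Exons of *Igf2bp3* share 1529 bases with *Malsu1* on the opposite strand. As the strand setting of the counting is not given in the sources used here, reads there cannot be assigned with certainty. *Malsu1* had 0 to 40.5 CPM. The precursor gene *Mir3063*, which shares 92 bases with *Igf2bp1*, had 0 counts in each library.

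**Figure D2:**
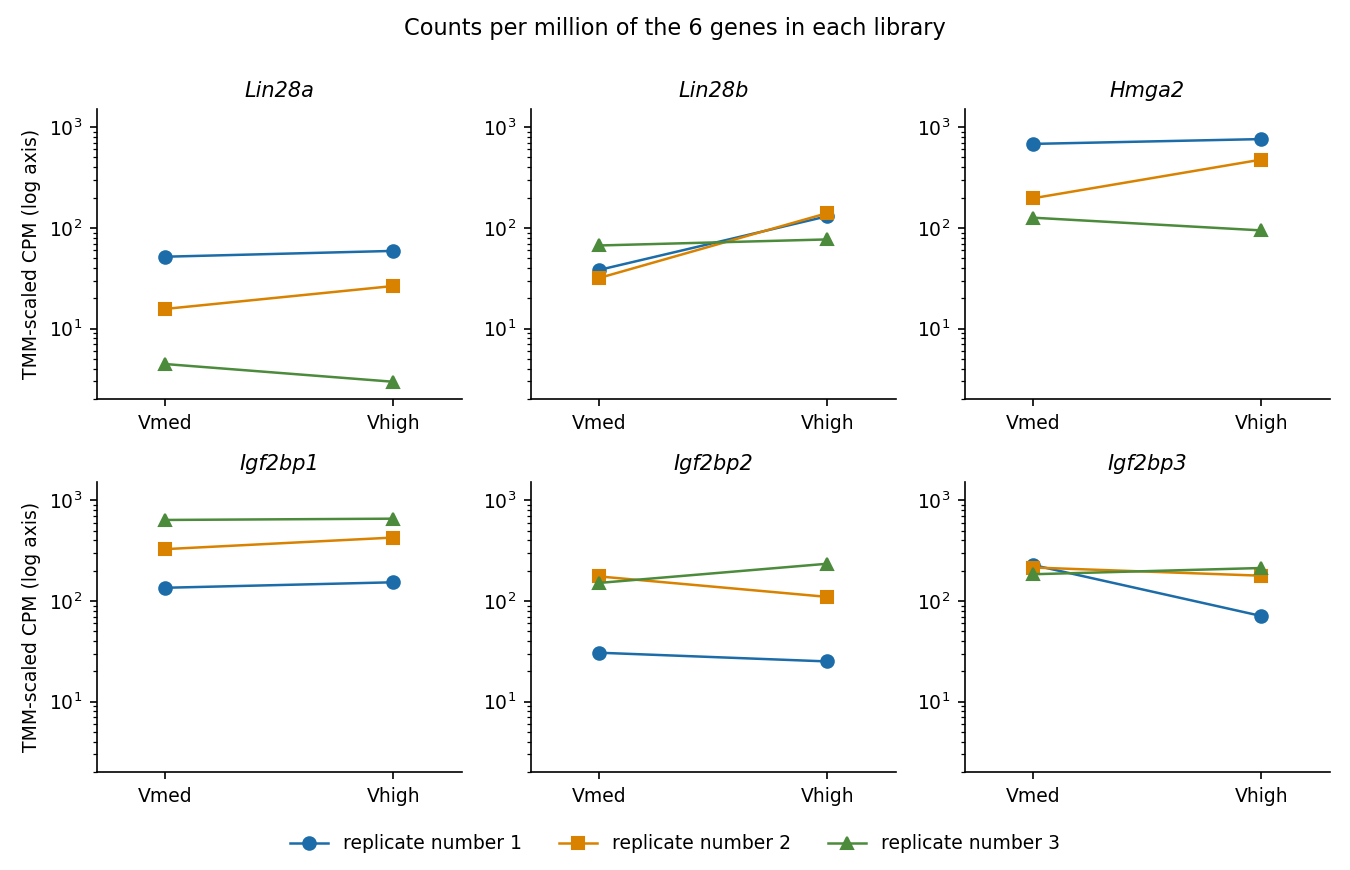
TMM-scaled CPM of the 6 genes in each library on a log axis, with Vmed on the left and Vhigh on the right of each panel and a line joining libraries of the same replicate number. *Lin28b* is the gene whose fractions do not overlap (31.9 to 66.9 against 76.9 to 140.3 CPM). In the panels of *Lin28a*, *Hmga2* and *Igf2bp1* the libraries keep the same order of replicate numbers in both fractions.

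**Figure D3:**
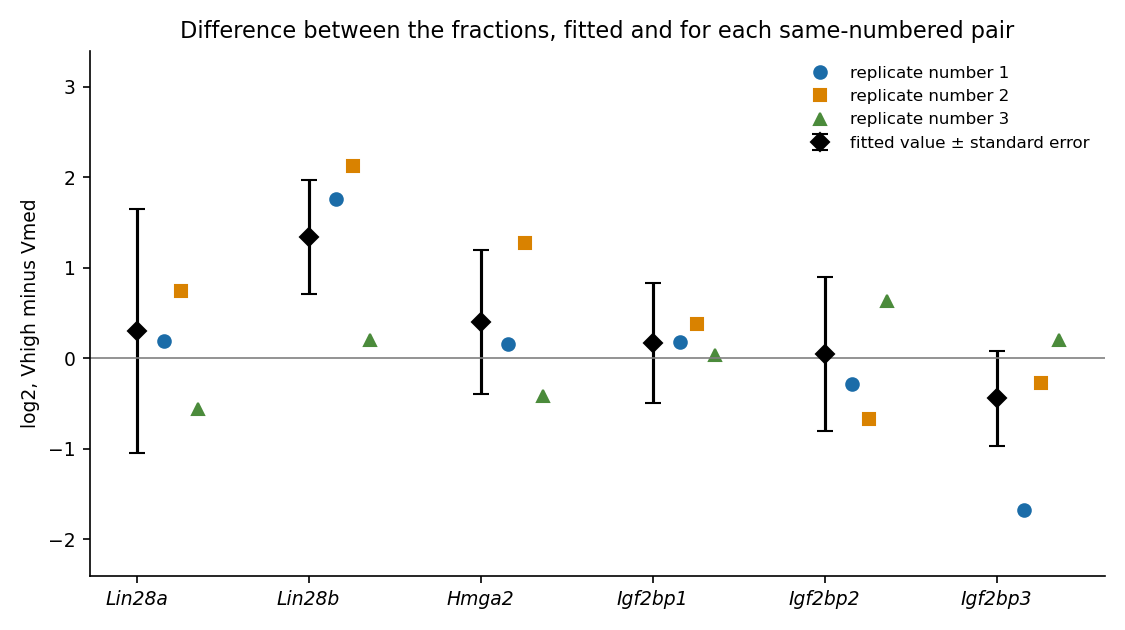
Log2 difference of Vhigh minus Vmed for the 6 genes. Black diamonds with bars are the fitted value ± standard error from all 6 libraries, and coloured points are the differences of log2 CPM in the same-numbered pairs. *Lin28b* (1.34) and *Igf2bp1* (0.17) have all 3 points above 0, and the points of the other 4 genes fall on both sides.

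The fitted log2 fold change was above 0 for 5 of the 6 genes, while it was above 0 for 6201 and below 0 for 6487 of all tested genes (median -0.02). For 4 of the 6 genes the replicate number held most of the spread. Of the sum of squares of log2 CPM over the 6 libraries, the replicate number held 98.2% for *Igf2bp1*, 97.1% for *Lin28a*, 94.9% for *Igf2bp2* and 89.1% for *Hmga2*, against a median of 55.1% over all tested genes. For *Igf2bp3* it held 26.6% and for *Lin28b* 0.289%. The fraction held 72.4% for *Lin28b*, 25.3% for *Igf2bp3* and at most 2.05% for the other 4, against a median of 11.3%. A larger number share than that of *Igf2bp1* was found in 2.03% of tested genes, than that of *Lin28a* in 3.31%, than that of *Igf2bp2* in 6.18% and than that of *Hmga2* in 13.2%. For *Lin28b* 99.8% of tested genes had a larger one. The same number was highest, and the same number lowest, in both fractions for 3 of the 6 genes (*Lin28a*, *Hmga2* and *Igf2bp1*) and for 32.4% of all tested genes.

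**Figure D4:**
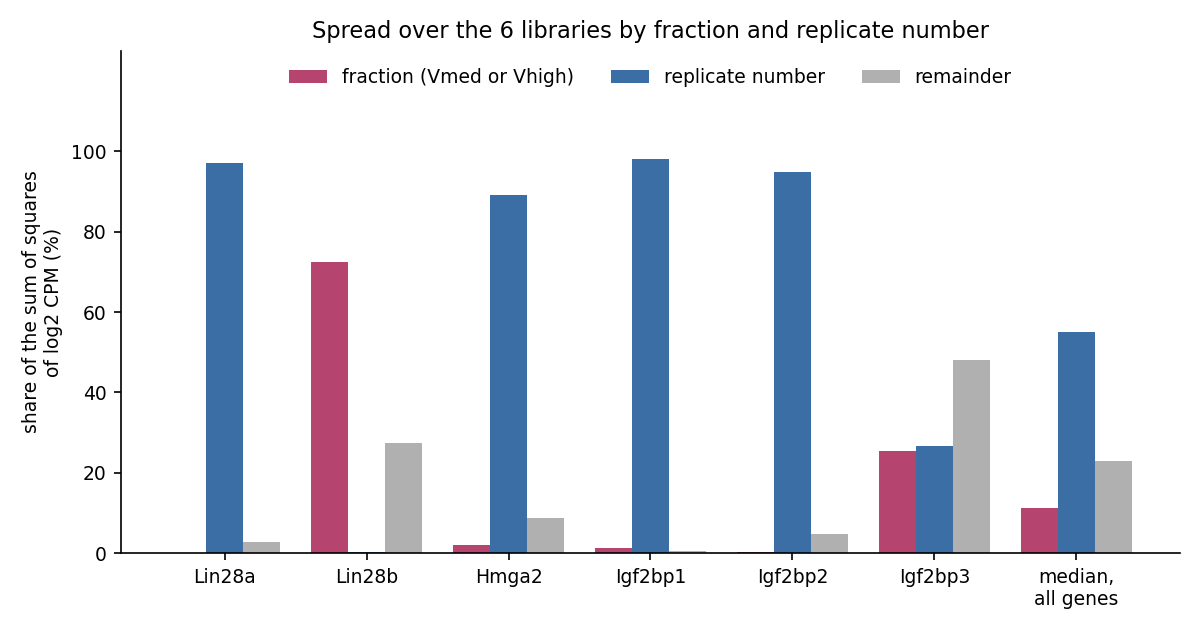
Share of the sum of squares of log2 CPM over the 6 libraries that lies between the fractions, between the replicate numbers and in the remainder, in percent, for each gene and as the median over all tested genes. The replicate number takes 89.1% to 98.2% for *Lin28a*, *Hmga2*, *Igf2bp1* and *Igf2bp2*, and the fraction takes 72.4% for *Lin28b*.

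A test of the replicate number, in a fit with the fraction and the number, was added after these values were seen. In edgeR's quasi-likelihood test 0 of 12688 genes passed an adjusted p of 0.05 (0%), with 1575 genes (12.4%) at an unadjusted p under 0.05. Of the 6 genes, 3 were among these 1575. They were *Igf2bp1* (unadjusted p = 0.00068), *Hmga2* (0.0035) and *Igf2bp2* (0.0057), with adjusted p-values of 0.16, 0.18 and 0.21. *Lin28a* had an unadjusted p of 0.067, *Igf2bp3* of 0.53 and *Lin28b* of 0.97 in the same quasi-likelihood test. By edgeR's likelihood ratio test 815 genes (6.42%) differed between the numbers, among them *Igf2bp1* (adjusted p = 0.0022), *Hmga2* (0.0029) and *Igf2bp2* (0.019). *Lin28a* missed the threshold there as well (adjusted p = 0.15 from the likelihood ratio test).

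These calls depended on which numbers were included. Without the libraries numbered 3 the likelihood ratio test called 1 gene and none of the 6. Without those numbered 1 it called 1590 genes with *Hmga2* alone of the 6, and without those numbered 2 it called 347 genes with *Hmga2* and *Igf2bp1*. From number 1 to number 3, over both fractions, *Lin28a* and *Hmga2* differed by -3.85 and -2.72 on the log2 scale, *Igf2bp1* and *Igf2bp2* by 2.16 and 2.75, *Igf2bp3* by 0.64 and *Lin28b* by 0.02.

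Other measures differed with the replicate number in the same libraries. Besides the shares of Rn45s and of counts outside genes, the sum of the 12 endothelial markers, none of them at 0 throughout, was 1254, 3734 and 5304 CPM in Vmed replicates 1, 2 and 3 and 1068, 1216 and 3798 CPM in Vhigh. Of these 12 markers, 5 differed between the numbers in the likelihood ratio test, which called 6.42% of all tested genes. The sum of the 14 blood stem and progenitor markers stood in the same order, with 234, 491 and 554 CPM in Vmed and 932, 1521 and 1951 CPM in Vhigh, and 2 of the 14 differed between the numbers in that test. The sum of the 12 macrophage markers, none of them at 0 throughout, was highest in the libraries numbered 1, as *Lin28a* and *Hmga2* were. It was 1928, 1033 and 1059 CPM in Vmed and 594, 127 and 153 CPM in Vhigh, with 3 of the 12 called. The primitive erythroid sum was highest in the libraries numbered 1 as well (668 CPM in Vmed and 394 CPM in Vhigh), with 0 of its 7 tested markers called. The number of genes with at least 1 count was 10427 to 14021 in the libraries numbered 1, 15812 to 18460 in those numbered 2 and 12709 to 13434 in those numbered 3. Their part in the differences between numbers was not tested, and what the numbers stand for is not given in the sources used here.

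Over the 6 libraries, log2 CPM of *Lin28a* and *Hmga2* had a Pearson's r of 0.98 (Spearman's rho 1), and *Igf2bp1* and *Igf2bp2* an r of 0.92 (rho 0.77). The 2 groups ran against each other, with an r of -0.92 for *Lin28a* and *Igf2bp1* (rho -0.89) and of -0.90 for *Hmga2* and *Igf2bp2* (rho -0.94). *Lin28a* and *Lin28b* had an r of 0.10 (rho 0.20). These values describe 6 points that share their replicate number and depth, and r over 0.99 was reached by 21 other genes for *Lin28a*, 5 for *Hmga2*, 22 for *Igf2bp1*, 12 for *Igf2bp2*, 40 for *Igf2bp3* and 0 for *Lin28b*. The genes most like *Lin28a* were *Coa3*, *Tomm6* and *Gm16523*, those most like *Hmga2* were *Paip1*, *Rpl23* and *Gatad1*, and those most like *Lin28b* were *Sbno1* (r 0.98), *Tmc4* and *2610507I01Rik*. For *Igf2bp1* they were *Trnau1ap*, *Pura* and *Ptdss1*, for *Igf2bp2* they were *Tcirg1*, *Atg2a* and *Sf3b3*, and for *Igf2bp3* they were *Cln8*, *Pcif1* and *Tmem41b*.

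The paralogs were also compared within each library. Per kilobase of exon, *Lin28b* made up 24.6%, 47.2% and 86.9% of the 2 *Lin28* genes in Vmed replicates 1, 2 and 3, and 49.3%, 70.0% and 91.9% in Vhigh. The share was thus highest in the libraries numbered 3 in both fractions and higher in Vhigh in each same-numbered pair. The log2 ratio of *Lin28b* to *Lin28a* was 0.29 ± 2.18 (SD, n = 3) in Vmed and 1.54 ± 1.76 (SD, n = 3) in Vhigh, a difference of 1.24 (exact two-sided permutation test, p = 0.4). Over the same-numbered differences the exact test gave p = 0.25, the smallest that 3 pairs allow. Without Vmed replicate 1 or Vhigh replicate 3 the difference was 0.29.

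The log2 ratio of *Igf2bp2* to *Igf2bp1* was -1.31 ± 0.70 (SD, n = 3) in Vmed and -1.63 ± 0.56 (SD, n = 3) in Vhigh (exact two-sided permutation test, p = 0.7). *Igf2bp1* was the higher per kilobase in each library. The log2 ratio of *Igf2bp3* to *Igf2bp1* was -0.30 ± 1.27 (SD, n = 3) in Vmed and -1.08 ± 0.27 (SD, n = 3) in Vhigh (exact two-sided permutation test, p = 0.5). In Vmed replicate 1 *Igf2bp3* was the higher of the pair, and *Igf2bp1* was in the other 5 libraries, or in 4 of them with the longest transcript as the length. The sum of the 3 *Igf2bp* genes was lowest in the libraries numbered 1 (393 CPM in Vmed and 249 CPM in Vhigh) and highest in those numbered 3 (972 and 1102 CPM).

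**Figure D5:**
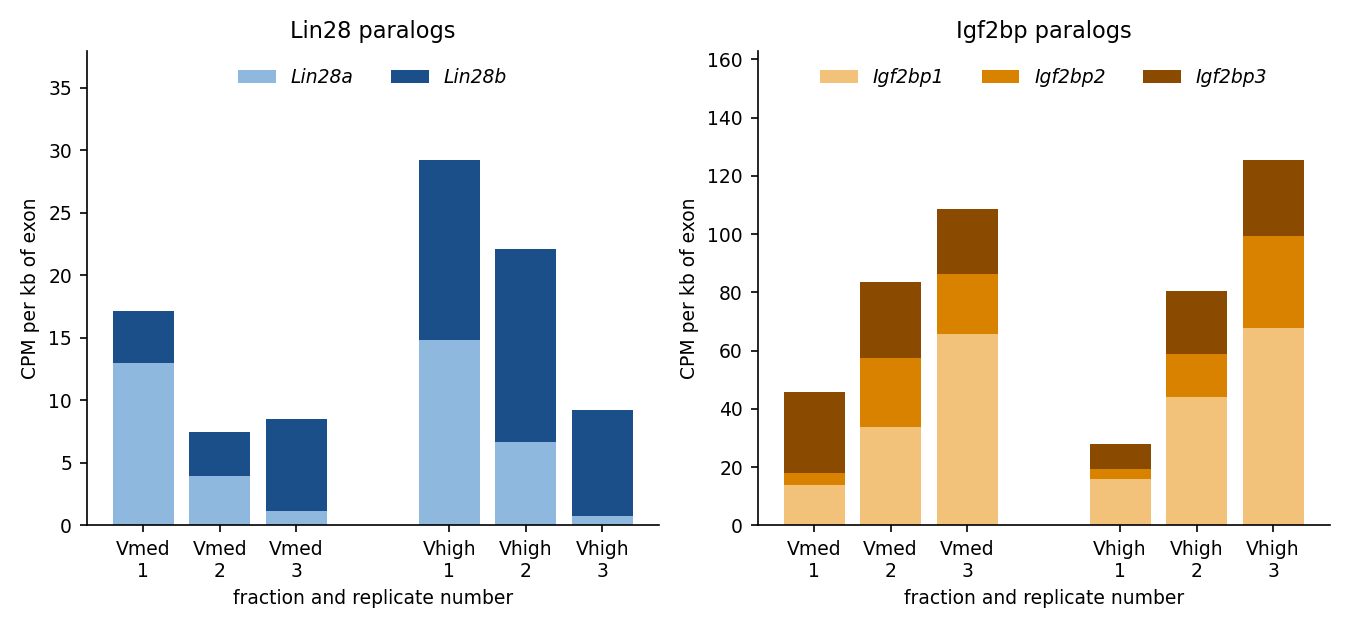
Level of the *Lin28* paralogs (left) and the *Igf2bp* paralogs (right) in each library, in CPM per kilobase of exon, stacked. *Lin28b* takes 24.6% to 91.9% of the left-hand bars, and the *Igf2bp1* segment is largest in the libraries numbered 3.

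As a level per kilobase of exon, the mean in Vmed was 49.5 ± 44.7 CPM per kb (SD, n = 3) for *Hmga2*, 37.8 ± 26.1 for *Igf2bp1*, 25.6 ± 2.71 for *Igf2bp3*, 16.1 ± 10.5 for *Igf2bp2*, 6.00 ± 6.19 for *Lin28a* and 5.04 ± 2.06 for *Lin28b*. In Vhigh it was 65.6 ± 49.4 for *Hmga2*, 42.5 ± 25.98 for *Igf2bp1*, 18.9 ± 9.04 for *Igf2bp3*, 16.6 ± 14.2 for *Igf2bp2*, 12.8 ± 3.77 for *Lin28b* and 7.39 ± 7.06 for *Lin28a* (SD, n = 3). No neighbours in either order differed beyond the SD of the wider one. With the longest transcript as the length, *Igf2bp3* (48.0 CPM per kb) came before *Igf2bp1* (43.7), and *Lin28b* (8.46) before *Lin28a* (6.84), in Vmed.

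The genes around the program were described from lists, of which none had a gene past an adjusted p of 0.05 in edgeR's quasi-likelihood test. The enzymes and partners that make or degrade let-7 had 21 tested of 22 genes, 13 fitted higher and 8 lower in Vhigh, with a median log2 fold change of 0.07 against -0.02 over all tested genes. *Ddx5*, a helicase of the Drosha complex, had 295, 263 and 1090 CPM in Vmed replicates 1, 2 and 3 and 446, 477 and 1482 CPM in Vhigh. *Khsrp*, whose protein binds the let-7 loop and promotes its processing, had 259, 134 and 29.5 CPM in Vmed and 407, 167 and 32.7 CPM in Vhigh, the order of numbers seen for *Lin28a* and *Hmga2*. Both differed between the numbers in the likelihood ratio test (adjusted p = 0.00032 for *Ddx5* and 4.9e-05 for *Khsrp*). They were the only 2 of the 21 tested to do so, a count near the 6.42% of all tested genes called by that test. *Xrn2*, an exoribonuclease, was between 244 and 315 CPM in all libraries.

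Of the let-7 targets outside the 6 genes, 27 of 28 were tested, with 14 fitted higher and 13 lower in Vhigh (median log2 fold change 0.12). The seed match was found in 16 of their 27 3′ UTRs. The 3 with the highest mean level were *Nras*, with 255 to 1042 CPM in Vmed and 206 to 624 CPM in Vhigh, *Ccnd2*, with 446 to 494 and 370 to 614 CPM, and *Myc*, with 6.13 to 136 and 79.0 to 312 CPM. All 3 overlapped between the fractions. *Mycn* and *Plagl2* were among those higher in all Vhigh libraries, and *Stard13*, *Tgfbr1* and *Thbs1* were higher in all Vmed libraries, named here after their values were seen. Of all tested genes, 3.64% were higher in all Vhigh libraries and 5.3% in all Vmed libraries. *Thbs1*, which encodes a matrix protein of mesenchymal and endothelial cells, had the lowest p before adjustment (0.0019, with a log2 difference of -3.47 and SE 0.76).

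Of the mRNAs known to be bound by Igf2bp proteins, all 10 were tested, with 5 fitted higher and 5 lower (median log2 fold change 0.59). This median is the midpoint of a gap between *Igf1r* (-0.05) and *Myc* (1.23), so it does not describe a typical gene of the list. *Actb*, whose mRNA Igf2bp1 carries to the cell edge, had 29418, 20974 and 11775 CPM in Vmed replicates 1, 2 and 3 and 27527, 17037 and 10650 CPM in Vhigh. It thus ran against *Igf2bp1* over the numbers. *Igf2*, the growth factor after which the proteins are named, had 543, 1012 and 1715 CPM in Vmed and 585, 797 and 1186 CPM in Vhigh, and *H19*, its neighbouring noncoding RNA, 709, 1130 and 846 CPM in Vmed and 470, 782 and 691 CPM in Vhigh. Unlike *Actb*, *Igf2* stood in the same order of numbers as *Igf2bp1* in both fractions, while *H19* was highest in the libraries numbered 2. *Cd44*, a cell surface receptor, and *Btrc*, a ubiquitin ligase subunit, had unadjusted p-values under 0.05, as 2.04% of all tested genes did. Both were named after their values were seen. *Cd44* had 69.9, 60.7 and 77.0 CPM in Vmed and 297, 302 and 284 CPM in Vhigh (log2 difference 2.09, SE 0.44, edgeR unadjusted p = 0.0010, adjusted p = 0.96). *Btrc* had 26.4, 67.5 and 60.2 CPM in Vmed and 337, 86.3 and 75.3 CPM in Vhigh, where replicate 1 stood far above the others. Its log2 difference was 1.69 (SE 0.73, edgeR unadjusted p = 0.046).

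The m6A writers, erasers and readers had 16 of 16 genes tested, 9 fitted higher and 7 lower in Vhigh (median log2 fold change 0.16). None was non-overlapping between the fractions. Of all tested genes, 3.64% had all Vhigh libraries higher and 5.3% all Vmed libraries, and 16 genes are too few to set a count of 0 against these shares. *Hnrnpa2b1*, a nuclear reader, had 678 to 1429 CPM in Vmed and 796 to 1474 CPM in Vhigh. *Ythdf2*, a reader that promotes decay, had 191 to 467 and 247 to 484 CPM, and *Alkbh5*, an eraser, had 136 to 331 and 143 to 401 CPM.

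Mature let-7 was not measured by these libraries. Of 17 let-7 hairpin and host genes, 11 had 0 counts in all 6 libraries, which allows up to 0.243 to 0.360 CPM per library, and 4 passed the filter, all of them hosts. Among these, *Huwe1* had a log2 difference of -0.14 (SE 0.62), *Wdr82* of -0.44 (SE 0.69) and *2810055G20Rik* of -1.99 (SE 1.94). *2610203C20Rik* was counted 34, 43 and 114 times in the Vmed libraries and 0 times in each Vhigh library (edgeR unadjusted p = 0.013), and it too was named after its values were seen.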

How the data were processed

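Single reads of CD31+ckit+ Vmed and Vhigh cells (3 libraries each) came from total RNA amplified by the SMARTer protocol. Per the labels and the study's methods, the authors aligned them to GRCm38/mm10 with TopHat and Bowtie 1.1.2, and HTSeq is named among their tools. They deposited raw counts per gene symbol, with no normalization. The annotation and the strand setting are not given in the sources used here.

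Genes were kept by edgeR's filterByExpr (12688 of 24062), scaled by TMM and tested in edgeR 4.0.16 (R 4.3.3) with the quasi-likelihood F test on the fraction alone and Benjamini-Hochberg adjustment over all tested genes at 0.05. Standard errors came from the same fit. Log2 CPM used a prior count of 2. CPM per kb used exon-union lengths of GENCODE M21. The procedure was tested on simulated data. That run does not show how large a difference could be called at the spread between these libraries. An exact two-sided permutation test was added for single values and ratios (scipy 1.17.1). After subtraction of the fraction means, same-numbered libraries correlated across genes with r of 0.21, 0.21 and 0.39. Differently numbered libraries had r of -0.29 to -0.006. The subtraction makes the deviations of the 3 libraries sum to 0, so positive values bring negative ones, and these values do not test the pairing. The replicate number, which comes from the labels, was taken as pairing the libraries. With the block the quasi-likelihood test called 0 genes. Alternatives used RLE, upper-quartile and library-size scaling, removal of Rn45s, other filters, the likelihood ratio test, robust estimation, DESeq2 1.42.0, limma-voom (limma 3.58.1), the block, and left-out libraries. Leaving out both libraries of a number, and testing the number, were added after seeing the data. Totals for reads outside genes, ambiguous and multiply aligned reads were left out of library sizes, and only the first is described.

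All members are named. From each list the text names the genes past the threshold or, where there are none, the 3 with the highest mean CPM, and for each member the 3 genes with the highest Pearson's r. Further list genes and markers were named beyond this rule, after their values were seen, where a count of few genes or a limit beside a result called for it. The members and the lists were chosen with earlier results of these data known.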

Additional observations from a re-analysis of the deposited data

How the results depend on the processing

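The number of genes called between the fractions, 0 in the quasi-likelihood test, was 37 without a filter on low counts, 21 by the likelihood ratio test, 51 by DESeq2 and 74 by the likelihood ratio test with the replicate number as a block. It was 0 to 1 with libraries left out and 0 in the other alternatives, including the quasi-likelihood fit with the replicate block. None of the 6 genes passed an adjusted p of 0.05 in any of the 21 alternatives, and the block changed no call of theirs. The lowest adjusted p of *Lin28b* was 0.88. Its log2 fold change stayed above 0, from 0.98 without both libraries numbered 2 to 1.94 without both numbered 3, and from 1.34 to 1.40 in the alternatives with all libraries. For *Igf2bp3* it stayed below 0, from -0.83 to -0.03. Leaving libraries out moved *Lin28a* from -0.71 to 1.55, *Hmga2* from -0.24 to 1.46, *Igf2bp1* from -0.26 to 0.83 and *Igf2bp2* from -0.74 to 0.53, so that their directions rest on single libraries. The signs turned without Vhigh replicate 1 (*Lin28a* -0.71, *Hmga2* -0.24), Vmed replicate 3 (*Lin28a* -0.20), Vmed replicate 1 (*Igf2bp1* -0.22, *Igf2bp2* -0.40), Vhigh replicate 3 (*Igf2bp1* -0.26, *Igf2bp2* -0.74) and both libraries numbered 3 (*Igf2bp2* -0.61). *Igf2bp2* also turned with RLE (-0.014), DESeq2 (-0.014), limma-voom (-0.065) and the replicate block in either test (-0.11). The cause was not tested.

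The difference in the log2 ratio of *Lin28b* to *Lin28a* lay between 0.29 and 2.43 with a library left out, that of *Igf2bp2* to *Igf2bp1* between -0.58 and 0.090 (0.090 without Vmed replicate 2), and that of *Igf2bp3* to *Igf2bp1* between -1.40 and -0.13. With the replicate block (the mean of same-numbered differences) the values were 1.24, -0.31 and -0.78. For the replicate number, 0 genes were called by the quasi-likelihood test and 815 by the likelihood ratio test, with 3 of the 6 genes. With both libraries of a number left out, the former gave 1 to 304 genes (304 without number 1, 55 without number 2 and 1 without number 3) with 0 to 1 of the 6, and the latter 1 to 1590 (1590, 347 and 1) with 0 to 2 of the 6 (1, 2 and 0). *Hmga2* was the gene called by the quasi-likelihood test without number 2 (adjusted p = 0.046). Other scalings left the count at 0. A biological coefficient of variation of 1.16 over all genes, with 3 libraries per fraction, limits what could be called.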
